A study of Mus musculus with 28 samples.

Results

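The expression of 33 genes of cholesterol and fatty acid synthesis was followed by RNA-seq in germinal center B cells of mice with altered Tbl1xr1, a gene for a subunit of the NCoR and SMRT corepressor complexes. The genes were taken by symbol as targets and regulators of SREBP transcription factors, with the condition of at least 1 CPM (a gene's reads scaled to a common library total) in 3 or more libraries. All 33 met it, and each had at least 1 CPM in all 28 libraries. They are 33 of the 23382 listed genes and of the 11312 that meet the same condition on level. By role, 17 are enzymes of sterol synthesis, 4 are regulators of SREBP processing, 2 carry or export sterols and 10 make, lengthen, desaturate or activate fatty acids.

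The libraries fall into 6 groups. D370Y has the Tbl1xr1 D370Y mutation on 1 allele (5 libraries) and WT none (3 libraries). ImuBcl6 D370Y adds the ImuBcl6 allele to the mutation (5 libraries), and ImuBcl6 has that allele with Tbl1xr1 intact (5 libraries). KO is labelled KO/KO for Tbl1xr1 (5 libraries) and has a Cre control (5 libraries). Every group, controls included, carries the Cg1Cre allele in the heterozygous state, which expresses Cre in B cells that respond to antigen. ImuBcl6 is an allele that expresses Bcl6 under an immunoglobulin heavy-chain promoter. The Cre control has the genotype label of WT but a library protocol of its own, and was kept apart. The sources used here do not give age, immunisation, sorting or which animal gave which library, so p-values measure the spread between libraries, part of which may be technical.

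Cells make cholesterol from acetyl-CoA through mevalonate, farnesyl diphosphate, squalene and lanosterol. SREBP2, the product of Srebf2, switches on nearly every gene of this route. It is made as a membrane protein of the endoplasmic reticulum, and SCAP escorts it to the Golgi for cleavage when sterols are low. When sterols are high, INSIG1 and INSIG2 hold SCAP back, so the route is shut off as a unit. Fatty acids are built from acetyl-CoA by ACACA and FASN, lengthened by the ELOVL enzymes and desaturated by the SCD and FADS enzymes, in part under SREBP1 and LXR. Germinal center B cells divide fast and need both products for membranes.

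About 19022500 to 37700100 reads per library fell on listed genes, and 3 reads corresponded to 0.0640 to 0.133 CPM, below every member's level. KO replicate 3 stood apart. Its listed genes took 64.4% of the denominator that the authors used for CPM, against 78.7% to 84.6% in the 27 other libraries, and the KO results are given with and without it. The Tbl1xr1 level was 89.7 to 127 CPM in the libraries labelled KO and 80.6 to 94.5 CPM in the Cre controls (0.23 ± 0.11 SE on the log2 scale, limma adjusted p = 0.527), so whole-gene CPM do not show the label; reads from exons left in place would not show it. All 14 germinal center B cell markers stood above 1 CPM in every group. By Xist and Y-linked transcripts, all 5 D370Y libraries were female and the 3 WT libraries male. The 5 ImuBcl6 D370Y libraries were male and the 5 ImuBcl6 libraries female, with 3 male and 2 female among the KO libraries against 1 and 4 among the Cre controls. Sex and genotype cannot be told apart in either D370Y comparison.

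RefSeq promoter windows on GRCm38.p6 were matched for 25 of the 33 members, and the 250 bases before the RefSeq start were read for 4 motifs on both strands. The SREBP site of the form TCACNCCAC was found in 1 of the 25, Hmgcs1, and in 1.23% of 27025 genes. The CCAAT box, bound by NF-Y, stood in 19 of 25 members (76% against 37.5% of all genes). The GC box GGGCGG, bound by SP1, stood in 20 of 25 (80% against 35.4%). The E-box CACGTG was in 6 of 25 (24% against 6.86%). Such matches describe these letters only. The windows of 3 members are shown because the results below turn on them, with every match in capitals (ATTGG is CCAAT read on the other strand, CCGCCC is the GC box on the other strand). In Fasn the capitals CCAATTGG are CCAAT boxes on both strands that overlap. Fasn was lower with D370Y in the ImuBcl6 background, Nsdhl was higher in every library with ImuBcl6, and Hmgcs1 opens the sterol route. The window of Fads2 is not shown, since its RefSeq start lies inside the first exon of the GENCODE model.
Fasn (chr11:120824548-120824797, minus strand): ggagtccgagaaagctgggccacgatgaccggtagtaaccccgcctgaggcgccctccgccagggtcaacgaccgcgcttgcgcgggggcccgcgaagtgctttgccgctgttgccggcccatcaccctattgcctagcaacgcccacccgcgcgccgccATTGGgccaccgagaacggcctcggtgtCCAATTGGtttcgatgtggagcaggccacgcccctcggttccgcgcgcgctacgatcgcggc
Nsdhl (chrX:72918271-72918520, plus strand): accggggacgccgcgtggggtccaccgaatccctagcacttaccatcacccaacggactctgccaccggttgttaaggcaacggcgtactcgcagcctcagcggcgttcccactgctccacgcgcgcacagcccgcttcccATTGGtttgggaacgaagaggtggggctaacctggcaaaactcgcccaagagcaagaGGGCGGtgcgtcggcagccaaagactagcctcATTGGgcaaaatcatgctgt
Hmgcs1 (chr13:119690101-119690350, plus strand): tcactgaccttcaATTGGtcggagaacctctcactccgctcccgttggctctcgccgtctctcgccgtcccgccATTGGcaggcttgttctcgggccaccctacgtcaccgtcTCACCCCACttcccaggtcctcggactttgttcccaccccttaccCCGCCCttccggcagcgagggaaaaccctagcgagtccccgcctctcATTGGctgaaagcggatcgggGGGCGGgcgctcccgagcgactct
The Fasn window held 3 CCAAT boxes and no GC box. The Nsdhl window had 2 CCAAT boxes and 1 GC box, and the Hmgcs1 window 3 CCAAT boxes, 2 GC boxes and the SREBP site.

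Levels differed widely between members. Per kilobase of exon (mean of the 28 libraries, GENCODE M21 gene models), Scd1, a stearoyl-CoA desaturase that makes monounsaturated fatty acids, stood first at 104 CPM per kilobase. Srebf2 followed at 64.8, then Acly, which splits citrate into cytosolic acetyl-CoA, at 61.7, the paralog desaturase Scd2 at 50.1 and the lanosterol demethylase Cyp51 at 40.5 CPM per kilobase. Near the bottom were the isomerase Idi1 at 1.13 and the carboxylase Acaca at 1.26. The elongase Elovl6 averaged 1.12 over all libraries, but its group means spanned 0.530 in Cre control to 1.81 CPM per kilobase in WT libraries, so its rank depends on the group. The level per kilobase of Scd1 was 1.86 to 2.36 times that of Scd2 across the 6 groups. That of Insig1 was 2.15 times that of Insig2 in WT and 4.01 times in KO, and that of Elovl5 was 8.61 times that of Elovl6 in WT and 24.6 times in Cre control libraries. Scd1 and Scd2 are close copies that lie on the same chromosome (chr19:44394455-44407879, minus strand, and chr19:44293674-44306864, plus strand). The sources used here do not name the counting tool, so reads that fit both could have gone to either.

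**Figure D1:**
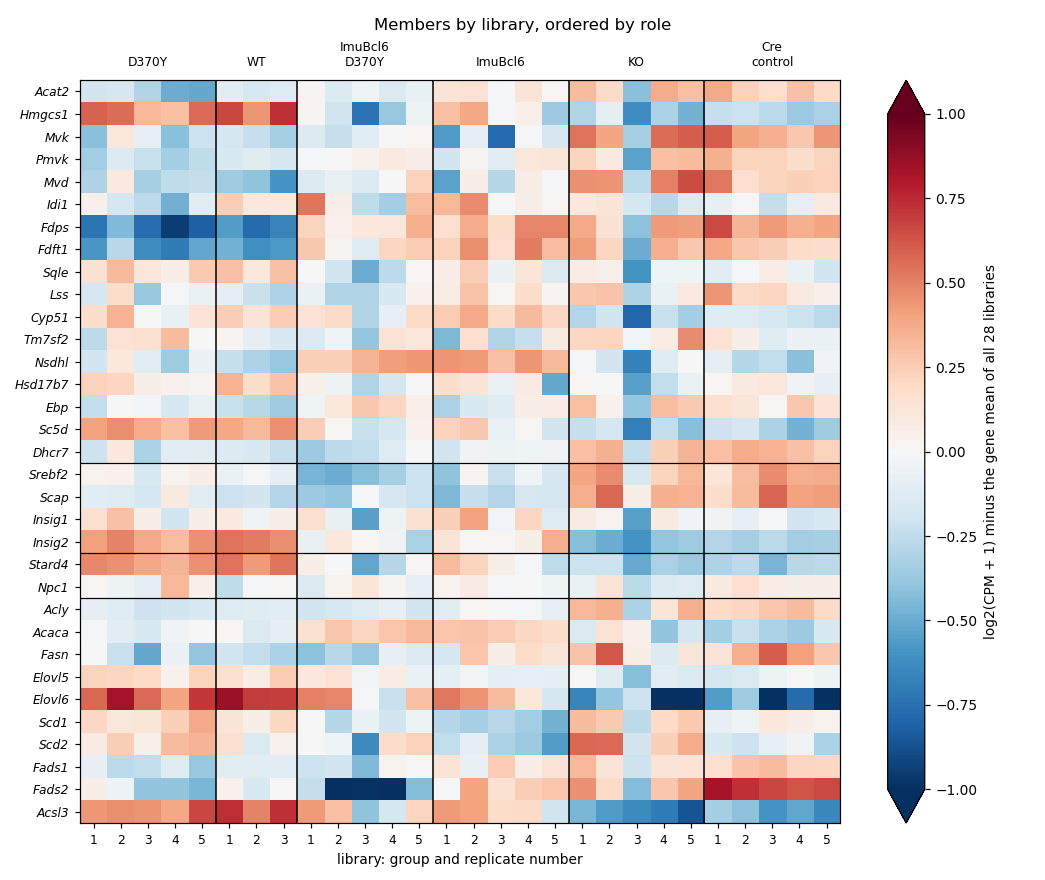
Each cell of the map is log2(CPM + 1) of a gene in a library minus the gene's mean over all 28 libraries, with genes ordered by role (horizontal lines separate sterol enzymes, regulators, transport and fatty acid genes) and libraries by group; the colour scale ends at -1 and 1. KO replicate 3 is low in most rows, Fads2 is low in ImuBcl6 D370Y, and in the D370Y and WT libraries Fdps and Fdft1 are low and Hmgcs1 is high.

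Within groups the spread was small for most members. The median coefficient of variation over the 33 genes was 9.51% in D370Y, 5.44% in WT, 10.9% in ImuBcl6 D370Y, 11.0% in ImuBcl6, 15.9% in KO and 6.49% in Cre control libraries. Without KO replicate 3 it was 7.70% in the KO group. KO replicate 3 had the lowest level of its group for 28 of the 33 members, 16 of the 17 sterol enzymes among them. The most variable members were Fads2 in D370Y (17.96%) and ImuBcl6 D370Y (36.8%), and Elovl6 in KO (37.6%) and Cre control libraries (32.4%).

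The first question was what heterozygous D370Y did to these genes without ImuBcl6. No member passed the test in D370Y against WT (limma on log2(CPM + 1), Benjamini-Hochberg adjusted p below 0.05 over all genes), with 3.55% of all 10600 tested genes called. An unadjusted p below 0.05 was reached by 4 members, and the share over all genes was not counted. By edgeR and DESeq2 0 members were called, beside 3.38% and 6.22% of all genes. The median log2 fold change was 0.01 over the members and -0.02 over all genes. Of the members 18 were above 0 and 15 below, beside 45.6% of all genes above 0. All 33 fold changes lay between -0.35 and 0.24.

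None of the 4 regulators passed the test. Srebf2 had 467, 469.7, 409.7, 465 and 478 CPM in the 5 D370Y libraries and 436, 452 and 427 CPM in the 3 WT libraries, and the WT values lay inside the D370Y range (0.06 ± 0.07 SE, adjusted p = 0.672). Insig1, whose transcript is itself an SREBP target and falls when sterols are plentiful, had 59.2, 65.1, 55.2, 46.2 and 55.0 CPM in D370Y and 56.8, 51.6 and 55.0 CPM in WT, again with WT inside the D370Y range (0.04 ± 0.09 SE, adjusted p = 0.877). Insig2 lay at 24.7 to 28.3 CPM (median 26.6) in D370Y and 27.6 to 29.2 CPM (median 28.7) in WT (-0.10 ± 0.07 SE, adjusted p = 0.5). Scap was at 51.7 to 62.5 CPM (median 54.2) in D370Y, above the 47.6 to 51.2 CPM (median 50.1) of WT in every library, without passing the test (0.15 ± 0.07 SE, adjusted p = 0.305).

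The sterol and fatty acid enzymes gave no call either. Hmgcs1, which condenses acetoacetyl-CoA to HMG-CoA, had 169, 165, 141, 138 and 166 CPM in D370Y and 178, 152 and 186 CPM in WT, with overlapping ranges (-0.14 ± 0.09 SE, adjusted p = 0.428). Idi1, which interconverts the C5 building blocks, had the lowest fold change of the list, at 4.05, 3.35, 3.07, 2.49 and 3.52 CPM in D370Y and 4.78, 4.26 and 4.25 CPM in WT (-0.35 ± 0.13 SE, adjusted p = 0.164). Its D370Y values all lay below those of WT. Squalene epoxidase (Sqle) stood at 101.3 to 121 CPM (median 108) in D370Y and 104 to 119 CPM (median 119) in WT (-0.05 ± 0.08 SE, adjusted p = 0.777). Fads2 had 16.6, 15.2, 11.8, 11.8 and 11.3 CPM in D370Y and 16.3, 14.2 and 15.8 CPM in WT, with overlap (-0.21 ± 0.12 SE, adjusted p = 0.394). For Scd1 the values were 579.7, 543, 546, 591 and 654 CPM in D370Y and 548, 526 and 579.7 CPM in WT (0.08 ± 0.07 SE, adjusted p = 0.614). For Scd2 they were 283, 318, 278, 334 and 338 CPM in D370Y and 299, 242 and 276 CPM in WT (0.19 ± 0.09 SE, adjusted p = 0.287). Both desaturases overlapped between the groups. Fasn had 239, 204, 167, 229 and 183 CPM in D370Y and 209, 201 and 192 CPM in WT (0.01 ± 0.11 SE, adjusted p = 0.962), and Acaca was not called (0.01 ± 0.07 SE, adjusted p = 0.945). The 95% interval of Fasn, -0.21 to 0.24, bounds what these 8 libraries could show for it.

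The second question was the effect of D370Y when Bcl6 is forced on by ImuBcl6. Bcl6 itself was at 422 to 512 CPM in ImuBcl6 D370Y and 522 to 590 CPM in ImuBcl6 libraries, without overlap. Tbl1xr1 was lower with D370Y (-0.37 ± 0.09 SE, limma adjusted p = 0.0261). The part of these levels in the results was not tested. Here 3 of 33 members (9.09%) passed the test in ImuBcl6 D370Y against ImuBcl6, beside 8.18% of all 10784 tested genes, so the list as a whole was called at about the rate of other genes. With each library left out in turn the count was 1 to 4, beside 4% to 9.36% of all genes. All 3 belong to fatty acid synthesis: Fads2 and Fasn fell and Scd1 rose. None of the 17 sterol enzymes, 4 regulators or 2 transport genes passed. The median fold change was -0.11 over the members and -0.01 over all genes. Of the members 10 were above 0 and 23 below, beside 47.9% of all genes above 0. An unadjusted p below 0.05 was reached by 14 members, and the share over all genes was not counted.

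Fads2, the delta-6 desaturase that starts the conversion of linoleic and linolenic acid to long polyunsaturated fatty acids (chr19:10062765-10101746, minus strand), had 13.3, 6.70, 7.46, 5.65 and 11.4 CPM in the 5 ImuBcl6 D370Y libraries and 15.9, 21.2, 17.7, 19.0 and 19.4 CPM in the 5 ImuBcl6 libraries. The groups did not overlap. Means were 8.90 ± 3.27 CPM with D370Y and 18.6 ± 1.98 CPM without (SD, n = 5 each), and the log2 fold change was -1.04 ± 0.18 SE (95% interval -1.44 to -0.64, limma adjusted p = 0.00604). Its neighbour Fads1, the delta-5 desaturase that acts later in the same conversion (chr19:10182888-10196877, plus strand), lay at 19.6 to 27.7 CPM (median 23.4) with D370Y and 25.5 to 32.4 CPM (median 29.8) without, and was not called (-0.27 ± 0.09 SE, adjusted p = 0.0967). In a bulk sample, fewer cells of a type and less RNA per cell cannot be told apart. Summed naive and memory B cell markers were higher, at 363 to 482 CPM with D370Y and 259 to 324 CPM without, and their part in the Fads2 result was not tested.

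Fasn, the multidomain synthase of palmitate (chr11:120805846-120824547, minus strand), had 179, 196, 183, 225 and 217 CPM in ImuBcl6 D370Y and 212, 289, 249, 271 and 261 CPM in ImuBcl6 libraries, with ranges that meet between 212 and 225 CPM. Its log2 fold change was -0.35 ± 0.09 SE (adjusted p = 0.0269). Scd1 had 502, 412, 478, 438 and 484 CPM with D370Y and 412, 398, 414, 393 and 361 CPM without, where the lowest D370Y value lay among the highest control values (0.22 ± 0.06 SE, adjusted p = 0.046). Both calls were near the threshold: 6 of the 10 fits that leave out 1 library lost Fasn and 7 lost Scd1, while Fads2 was called in all 10. Scd2 had 266, 259.6, 172, 302 and 315 CPM with D370Y and 225, 252, 214, 206 and 182 CPM without, and was called only when ImuBcl6 D370Y replicate 3, its lowest library, was left out (0.41, adjusted p = 0.0258, against 0.26 ± 0.14 SE and adjusted p = 0.294 with all 10).

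**Figure D2:**
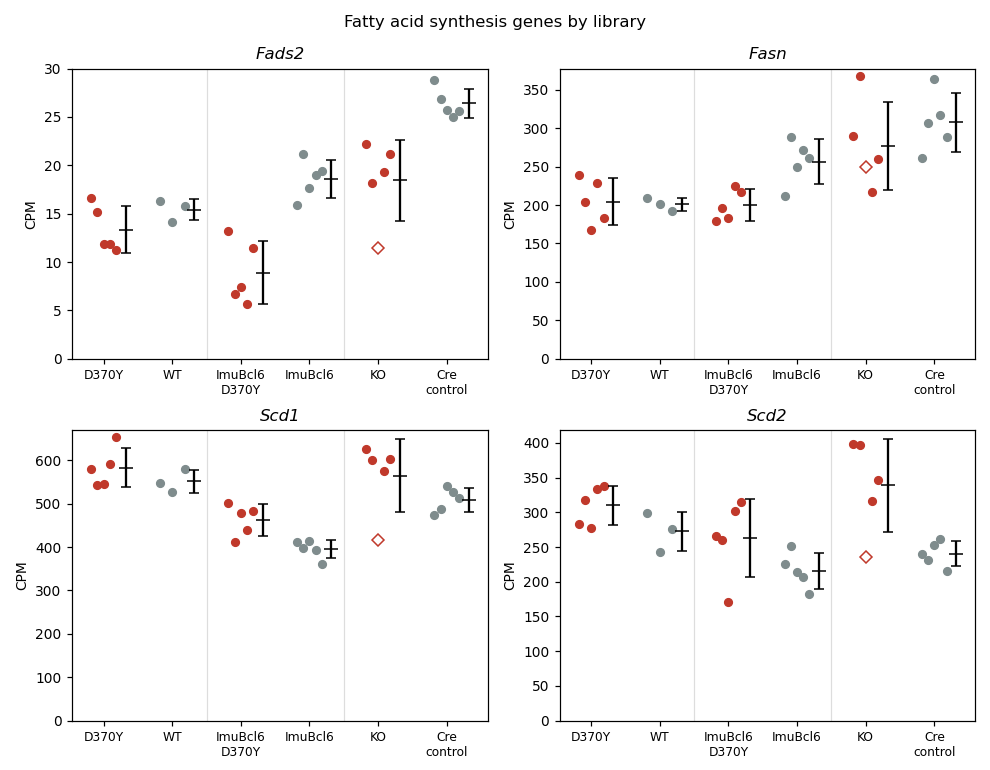
CPM of Fads2, Fasn, Scd1 and Scd2 in every library of the 6 groups (points; the open diamond is KO replicate 3), with mean and SD beside each group and axes that start at 0; red groups carry the Tbl1xr1 allele and grey groups are their controls. Fads2 lies below its control in every ImuBcl6 D370Y and KO library, while 4 of the 5 KO libraries lie above all Cre controls for Scd1 and Scd2.

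No gene of the sterol arm passed the test here. Srebf2 had 331, 324, 340.3, 362 and 394 CPM in ImuBcl6 D370Y and 346, 464, 391, 442 and 406 CPM in ImuBcl6 libraries (-0.22 ± 0.08 SE, adjusted p = 0.108). Lanosterol synthase (Lss) lay at 29.9 to 38.2 CPM (median 33.2) with D370Y and 37.6 to 45.4 CPM (median 39.1) without, with ranges that just overlap (-0.27 ± 0.08 SE, adjusted p = 0.058). Hmgcs1 had 114, 97.3, 66.8, 85.7 and 108 CPM with D370Y and 138, 147, 111, 116 and 86.8 CPM without (-0.34 ± 0.16 SE, adjusted p = 0.204). ImuBcl6 D370Y replicate 3 had the group's lowest level for 12 members, 7 sterol enzymes among them, and ImuBcl6 replicate 2 had its group's highest for 18. Insig1 lay at 35.9 to 59.3 CPM (median 50.9) with D370Y and 48.3 to 70.3 CPM (median 61.6) without, Scap at 44.4 to 57.7 CPM (median 50.4) with and 42.5 to 52.2 CPM (median 49.6) without, and Idi1 at 2.86 to 6.06 CPM (median 4.10) with and 3.90 to 5.76 CPM (median 4.08) without, all overlapping. Their fold changes and those of other uncalled regulators and enzymes were Insig1 (-0.21 ± 0.14 SE, adjusted p = 0.38), Insig2 (-0.18 ± 0.09 SE, adjusted p = 0.276), Scap (0.03 ± 0.08 SE, adjusted p = 0.852), Idi1 (-0.11 ± 0.17 SE, adjusted p = 0.732), Sqle (-0.24 ± 0.10 SE, adjusted p = 0.171) and Acaca (0.01 ± 0.06 SE, adjusted p = 0.973).

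The third question was the effect of the allele labelled KO. With all 10 libraries no member passed the test in KO against Cre control, beside 1.39% of all 10514 tested genes. An unadjusted p below 0.05 was reached by 2 members, Fads2 and Scd2, which edgeR called, and DESeq2 called these and Scd1. Over all genes edgeR called 2.26% and DESeq2 4.34%, and the share at an unadjusted p below 0.05 was not counted. Without KO replicate 3, 3 of 33 members were called (9.09%), beside 4.25% of 10561 genes, and they were Scd2 and Scd1, higher, and Fads2, lower. The member median was -0.07 with all libraries and 0.03 without that one, against -0.06 and 0.0014 over all genes.

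Fads2 had 22.2, 18.2, 11.5, 19.3 and 21.1 CPM in the KO libraries and 28.8, 26.9, 25.8, 25.0 and 25.6 CPM in the Cre controls. Every KO library, with or without replicate 3 at 11.5 CPM, lay below every control. The log2 fold change was -0.53 ± 0.14 SE (adjusted p = 0.0715) with all libraries and -0.37 ± 0.07 SE (adjusted p = 0.00912) without replicate 3. With a term for sex it was -0.63 ± 0.13 SE (adjusted p = 0.00854) over all 10 libraries. The 3 male KO libraries lay between 19.3 and 22.2 CPM against 25.0 CPM in the single male control, and the 2 female ones at 11.5 and 18.2 CPM against 25.6 to 28.8 CPM in the 4 female controls. Naive and memory B cell markers summed to 353 to 496 CPM in KO and 294 to 351 CPM in control libraries, and their part in this result was not tested.

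Scd2 had 398, 396, 235, 317 and 347 CPM in the KO libraries and 240.5, 232, 253, 262 and 215 CPM in the Cre controls, with the third KO library alone inside the control range. Its log2 fold change was 0.47 ± 0.13 SE (adjusted p = 0.111) with that library and 0.60 ± 0.08 SE (adjusted p = 0.000661) without it. Scd1 had 624.96, 601, 417, 576 and 603 CPM in KO and 474, 488, 540.4, 526 and 514 CPM in control libraries, and again only replicate 3 was not above the controls (0.14 ± 0.12 SE, adjusted p = 0.858 with it, 0.24 ± 0.05 SE, adjusted p = 0.0133 without it). With a sex term and without replicate 3, Scd2 and Fads2 were called (0.60 ± 0.09 SE and -0.40 ± 0.09 SE, adjusted p = 0.006 and 0.035) and Scd1 was not (adjusted p = 0.0807). Fasn had 290.2, 368, 249, 217 and 259.9 CPM in KO and 261, 307, 364, 317 and 288 CPM in control libraries, which overlap (-0.17 ± 0.14 SE, adjusted p = 0.841).

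The sterol side gave no call in KO cells with or without replicate 3. Srebf2 had 601, 633, 408, 532 and 575 CPM in KO and 496, 565, 632, 589 and 590.4 CPM in control libraries (-0.07 ± 0.13 SE, adjusted p = 0.91). Without replicate 3 the difference was 0.03 ± 0.07 SE (adjusted p = 0.87). Insig1 had 55.9, 54.1, 36.0, 56.5 and 51.6 CPM in KO and 51.6, 49.9, 52.3, 46.0 and 47.4 CPM in control libraries (0.02 ± 0.12 SE, adjusted p = 0.968). Scap lay at 60.8 to 87.4 CPM (median 75.0) in KO and 66.1 to 88.0 CPM (median 77.8) in control libraries, Idi1 at 3.03 to 4.32 CPM (median 3.41) in KO and 3.15 to 4.22 CPM (median 3.61) in control libraries, and Sqle at 63.6 to 102 CPM (median 94.2) in KO and 84.6 to 102 CPM (median 92.4) in control libraries, all overlapping. Fold changes of these and of the remaining regulators and enzymes were Hmgcs1 (-0.08 ± 0.11 SE, adjusted p = 0.898), Idi1 (-0.01 ± 0.12 SE, adjusted p = 0.983), Sqle (-0.05 ± 0.12 SE, adjusted p = 0.935), Scap (-0.04 ± 0.11 SE, adjusted p = 0.945), Insig2 (-0.13 ± 0.09 SE, adjusted p = 0.765) and Acaca (0.18 ± 0.11 SE, adjusted p = 0.731). Insig2 lay at 12.7 to 15.2 CPM (median 14.5) in KO libraries, all below the 15.3 to 16.2 CPM (median 15.5) of the controls, by a small step.

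**Figure D3:**
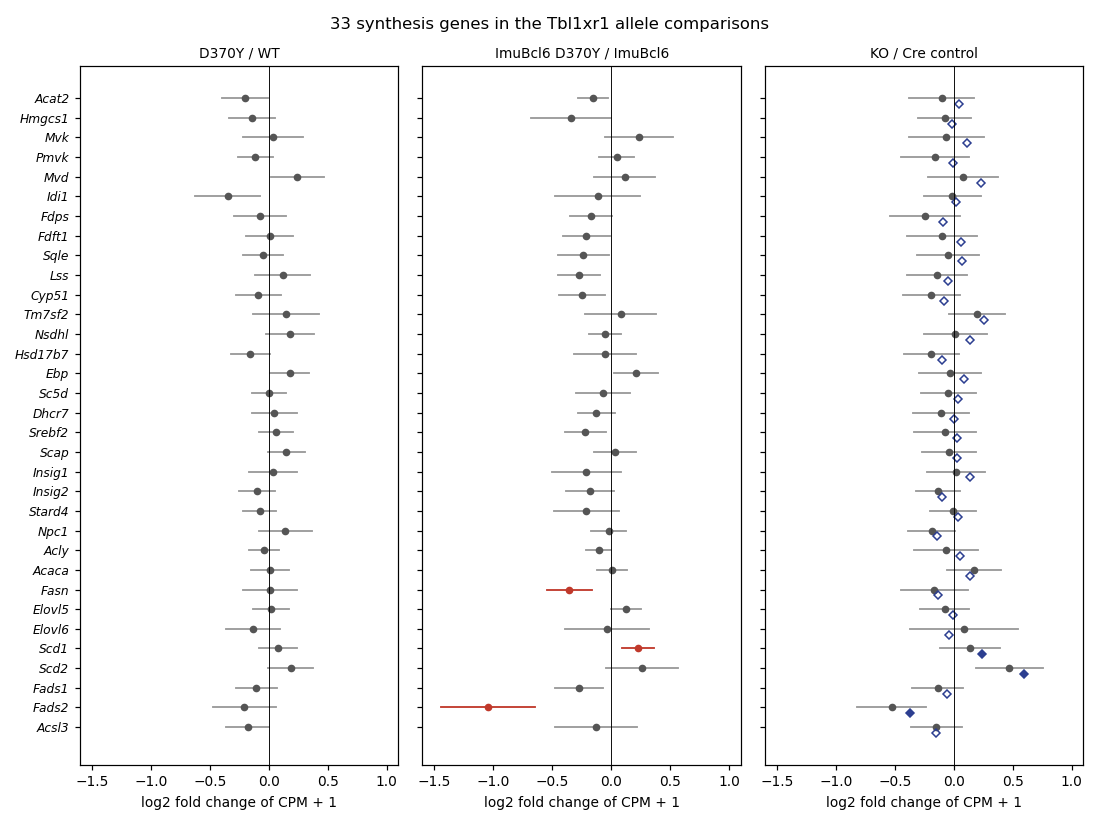
Log2 fold change of each member (dot) with its 95% interval (line) for D370Y over WT, ImuBcl6 D370Y over ImuBcl6 and KO over Cre control; red marks an adjusted p below 0.05, and blue diamonds give KO over Cre control without KO replicate 3, filled where called. Fads2 at -1.04, Fasn at -0.35 and Scd1 at 0.22 are called in the ImuBcl6 background, and Fads2, Scd1 and Scd2 without KO replicate 3.

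Whether the alleles differed in effect was tested directly, but the sexes were not balanced in these tests. D370Y libraries were female and WT male, while ImuBcl6 D370Y libraries were male and ImuBcl6 female. Sex thus runs in opposite directions in the D370Y comparisons. In the differences below, sex and allele cannot be told apart. No member was called in the difference between the D370Y effects with and without ImuBcl6, beside 0.663% of 11166 genes, and 5 reached an unadjusted p below 0.05. Fads2 had the largest of these differences by size, -0.83 ± 0.25 SE (adjusted p = 0.149), which was called without ImuBcl6 D370Y replicate 1 (-0.98, adjusted p = 0.0445). Between the KO and D370Y effects no member was called either, beside 0.145% of 11041 genes, with 1 member, Npc1, at an unadjusted p below 0.05. edgeR and DESeq2 called 0 members in both, beside 0.636% and 1.65% of all genes in the first and 0.0453% and 0.399% in the second. The share over all genes at an unadjusted p below 0.05 was not counted. The 3 allele comparisons have no library in common. In D370Y, ImuBcl6 D370Y and KO, each over its control, Fads2 had log2 fold changes of -0.21, -1.04 and -0.53. For Scd2 they were 0.19, 0.26 and 0.47, for Scd1 0.08, 0.22 and 0.14, and for Fasn 0.01, -0.35 and -0.17. For these genes neither the D370Y value nor the KO value over all 10 libraries passed the test, and in the ImuBcl6 background Scd2 did not. Some uncalled members, Acat2 and Hmgcs1 among them, also kept their sign in all 3 comparisons. The share of all genes that did so was not counted, so a shared sign cannot be read as a result about these genes.

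The comparisons of groups with and without ImuBcl6 held far wider differences, but depth and sex differ between their groups too, as set out below. In ImuBcl6 against WT 18 of 33 members were called (9 higher, 9 lower; 54.5% beside 53.3% of 10889 genes), and in ImuBcl6 D370Y against D370Y also 18 (7 higher, 11 lower; 54.5% beside 54% of 10780 genes). The members were thus called at about the rate of all genes. Without WT replicate 3 the first count was 11, and the share of all genes called fell too, to 41.1%. The median fold changes were 0.06 and -0.09 over the members, and -0.02 and -0.06 over all genes. These 2 comparisons share no library. In both, 12 members were called in the same direction (36.4% of members, beside 40.4% of 10705 genes), 5 of them higher and 7 lower, and 1, Fads2, in opposite directions.

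The largest rises were those of Fdps and Fdft1, which act in sequence at the branch to squalene. Fdps, which makes farnesyl diphosphate for sterols and protein prenylation (chr3:89093588-89101959, minus strand), had 55.5, 64.1, 56.2, 69.6 and 69.6 CPM in ImuBcl6 and 33.1, 28.5 and 30.6 CPM in WT libraries, with no overlap (1.01 ± 0.09 SE, adjusted p = 7.84e-06). With D370Y on both sides it had 57.7, 50.8, 53.2, 53.3 and 63.3 CPM in ImuBcl6 D370Y and 29.3, 36.0, 28.7, 25.0 and 27.5 CPM in D370Y (0.91 ± 0.09 SE, adjusted p = 1.83e-06). Fdft1, squalene synthase and the first enzyme committed to sterols, was at 52.8 to 67.3 CPM (median 58.4) in ImuBcl6 and 30.4 to 33.6 CPM (median 31.3) in WT (0.89 ± 0.09 SE, adjusted p = 1.24e-05). In ImuBcl6 D370Y it was at 42.8 to 56.9 CPM (median 54.8) and in D370Y at 28.6 to 38.5 CPM (median 31.0) (0.67 ± 0.09 SE, adjusted p = 4.6e-05).

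Nsdhl and Acaca rose as well. Nsdhl, a dehydrogenase in the removal of the C4 methyl groups of sterols (chrX:72918557-72958514, plus strand), had 56.3, 55.5, 50.6, 56.3 and 51.6 CPM in ImuBcl6 and 34.9, 33.1 and 31.3 CPM in WT (0.69 ± 0.07 SE, adjusted p = 1.22e-05). It had 48.7, 48.6, 52.4, 55.3 and 55.9 CPM in ImuBcl6 D370Y and 35.8, 44.3, 38.1, 31.9 and 39.4 CPM in D370Y (0.46 ± 0.08 SE, adjusted p = 0.00036). Acaca, acetyl-CoA carboxylase 1 and the committed step of fatty acid synthesis (chr11:84129672-84401651, plus strand), had 26.0, 26.2, 25.6, 24.7 and 24.1 CPM in ImuBcl6 and 21.5, 19.1 and 19.9 CPM in WT (0.31 ± 0.07 SE, adjusted p = 0.00327). It had 23.7, 25.8, 24.8, 26.0 and 26.8 CPM in ImuBcl6 D370Y and 21.0, 19.7, 19.1, 20.7 and 21.4 CPM in D370Y (0.31 ± 0.06 SE, adjusted p = 0.000966). Acat2, which makes acetoacetyl-CoA, rose less (0.21 ± 0.06 SE and 0.26 ± 0.08 SE, adjusted p = 0.0155 and 0.0128), with 50.8 to 56.6 CPM (median 55.9) in ImuBcl6 against 45.7 to 47.3 CPM (median 46.5) in WT and 46.0 to 52.0 CPM (median 48.4) in ImuBcl6 D370Y against 35.5 to 45.4 CPM (median 41.2) in D370Y.

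Of the genes that fell in both, Hmgcs1 (chr13:119690379-119708260, plus strand) had 138, 147, 111, 116 and 86.8 CPM in ImuBcl6 and 178, 152 and 186 CPM in WT (-0.54 ± 0.15 SE, adjusted p = 0.0099). It had 114, 97.3, 66.8, 85.7 and 108 CPM in ImuBcl6 D370Y and 169, 165, 141, 138 and 166 CPM in D370Y (-0.74 ± 0.12 SE, adjusted p = 0.000185). Stard4, a soluble sterol carrier, lay at 34.0 to 51.1 CPM (median 42.4) in ImuBcl6 and 55.2 to 59.7 CPM (median 59.7) in WT (-0.44 ± 0.11 SE, adjusted p = 0.00737). It lay at 28.1 to 42.4 CPM (median 40.8) in ImuBcl6 D370Y and 51.9 to 57.4 CPM (median 56.3) in D370Y (-0.57 ± 0.10 SE, adjusted p = 0.000275). For Insig2 the ranges were 19.9 to 25.8 CPM (median 20.6) in ImuBcl6 and 27.6 to 29.2 CPM (median 28.7) in WT (-0.39 ± 0.09 SE, adjusted p = 0.00395), then 15.6 to 21.3 CPM (median 19.2) in ImuBcl6 D370Y and 24.7 to 28.3 CPM (median 26.6) in D370Y (-0.47 ± 0.08 SE, adjusted p = 0.000227).

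The other genes lower in both were the lathosterol desaturase Sc5d (-0.34 ± 0.10 SE and -0.41 ± 0.08 SE, adjusted p = 0.0173 and 0.000898) and Scd1 (-0.48 ± 0.06 SE and -0.33 ± 0.07 SE, adjusted p = 8.83e-05 and 0.00132). Elovl6, which lengthens C16 to C18 acids, and Acsl3, which activates fatty acids for lipid droplets, fell likewise (-0.50 ± 0.15 SE and -0.41 ± 0.14 SE, then -0.45 ± 0.13 SE and -0.41 ± 0.13 SE, with adjusted p of 0.0148, 0.0243, 0.0137 and 0.0193). Sc5d lay at 37.0 to 51.002 CPM (median 42.5) in ImuBcl6 and 53.1 to 58.3 CPM (median 55.5) in WT, and at 36.0 to 50.4 CPM (median 42.8) in ImuBcl6 D370Y and 52.2 to 58.6 CPM (median 56.1) in D370Y. Scd1 was at 361 to 414 CPM in ImuBcl6 and 526 to 579.7 CPM in WT, apart, and at 412 to 502 CPM in ImuBcl6 D370Y and 543 to 654 CPM in D370Y, also apart. Elovl6 was at 5.64 to 9.81 CPM (median 8.36) in ImuBcl6 and 11.1 to 12.6 CPM (median 11.1) in WT, and at 5.41 to 9.61 CPM (median 8.19) in ImuBcl6 D370Y and 8.84 to 12.4 CPM (median 10.2) in D370Y. Acsl3 was at 21.7 to 34.0 CPM (median 28.8) in ImuBcl6 and 35.7 to 42.6 CPM (median 42.3) in WT, and at 18.7 to 34.0 CPM (median 29.2) in ImuBcl6 D370Y and 33.1 to 40.3 CPM (median 34.6) in D370Y.

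Members called in a single one of these comparisons had log2 fold changes between -0.39 and 0.34. In ImuBcl6 against WT they were Fasn (0.34 ± 0.09 SE, adjusted p = 0.00775), Lss (0.32 ± 0.08 SE, adjusted p = 0.00678) and Fads1 (0.22 ± 0.08 SE, adjusted p = 0.0422), higher, and Scd2 (-0.34 ± 0.10 SE, adjusted p = 0.0151) and the elongase Elovl5 (-0.24 ± 0.06 SE, adjusted p = 0.00763), lower. In ImuBcl6 D370Y against D370Y the phosphomevalonate kinase Pmvk (0.30 ± 0.06 SE, adjusted p = 0.000819) and the sterol isomerase Ebp (0.22 ± 0.07 SE, adjusted p = 0.0219) were higher. Srebf2 (-0.39 ± 0.07 SE, adjusted p = 0.000273), Sqle (-0.37 ± 0.09 SE, adjusted p = 0.00359) and the ketosteroid reductase Hsd17b7 (-0.21 ± 0.08 SE, adjusted p = 0.038) were lower. Fads2 was higher in ImuBcl6 than in WT (0.25 ± 0.10 SE, adjusted p = 0.0479) and lower in ImuBcl6 D370Y than in D370Y (-0.58 ± 0.19 SE, adjusted p = 0.0178).

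Levels behind these calls were 37.6 to 45.4 CPM (median 39.1) in ImuBcl6 and 29.8 to 34.7 CPM (median 31.7) in WT for Lss, 25.5 to 32.4 CPM (median 29.8) in ImuBcl6 and 24.9 to 25.1 CPM (median 24.9) in WT for Fads1, and 45.4 to 47.8 CPM (median 45.8) in ImuBcl6 and 51.3 to 58.3 CPM (median 54.7) in WT for Elovl5. All 3 genes had ranges apart between these groups. Pmvk lay at 58.3 to 63.1 CPM (median 60.6) in ImuBcl6 D370Y and 46.1 to 53.6 CPM (median 49.2) in D370Y, and Ebp at 36.6 to 45.9 CPM (median 40.8) in ImuBcl6 D370Y and 31.8 to 38.0 CPM (median 36.0) in D370Y. Sqle was at 68.2 to 97.5 CPM (median 84.0) in ImuBcl6 D370Y and 101.3 to 121 CPM (median 108) in D370Y, without overlap, and Hsd17b7 at 20.46 to 26.4 CPM (median 24.5) in ImuBcl6 D370Y and 25.9 to 30.1 CPM (median 26.6) in D370Y, with overlap. Srebf2 in ImuBcl6 D370Y, at 324 to 394 CPM, lay below every D370Y library. Of the named regulators and enzymes not called, Scap (-0.03 ± 0.08 SE, adjusted p = 0.756), Insig1 (0.10 ± 0.11 SE, adjusted p = 0.47), Srebf2 (-0.10 ± 0.09 SE, adjusted p = 0.33), Idi1 (0.02 ± 0.13 SE, adjusted p = 0.887) and Sqle (-0.19 ± 0.09 SE, adjusted p = 0.1) were those of ImuBcl6 against WT. With D370Y on both sides they were Scap (-0.15 ± 0.08 SE, adjusted p = 0.135), Insig1 (-0.15 ± 0.12 SE, adjusted p = 0.336), Idi1 (0.26 ± 0.16 SE, adjusted p = 0.196), Fasn (-0.02 ± 0.10 SE, adjusted p = 0.859) and Scd2 (-0.26 ± 0.13 SE, adjusted p = 0.11).

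These comparisons set deeper libraries (at least 31809600 reads) against shallower ones (at most 22227400 reads), and in both the sexes differ between the groups. The Cre control, which has the genotype label of WT, gives a second control level. Of the 18 members called in ImuBcl6 against WT, 14 had Cre control and WT ranges that did not overlap and lay apart in the direction of the ImuBcl6 difference, 7 higher and 7 lower. The share over all genes was not counted, so these counts cannot be read as a result about the members. Among the higher, Fdps stood at 62.7 to 78.4 CPM in the Cre controls, Fdft1 at 53.1 to 61.9 and Acat2 at 57.6 to 66.8 CPM, with Lss, Fasn, Fads1 and Fads2 also above WT. Among the lower, Hmgcs1 stood at 86.4 to 96.4 CPM there, Insig2 at 15.3 to 16.2, Stard4 at 29.3 to 33.8, Sc5d at 30.1 to 37.5, Elovl6 at 2.23 to 4.87 and Acsl3 at 15.7 to 19.6 CPM, and Elovl5 was below WT as well. The labels do not state how the libraries were batched, so for these genes the allele and whatever else separates the WT libraries from the others cannot be told apart.

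The remaining 4 were Nsdhl, Scd1 and Scd2, whose Cre control and WT ranges overlapped, and Acaca, whose Cre controls lay just below WT. Across all 28 libraries, 2 of 33 members had ranges that did not overlap between the 10 libraries with ImuBcl6 and the 18 without, beside 4.18% of 11312 genes, which is too close to that share to be read as a result about the list. Both were higher. Nsdhl spanned 48.6 to 56.3 CPM with ImuBcl6 and 25.3 to 44.3 CPM without. Acaca spanned 23.68 to 26.8 CPM with ImuBcl6 and 15.9 to 23.67 CPM without, so that KO replicate 2 all but touches the lowest ImuBcl6 library.

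**Figure D4:**
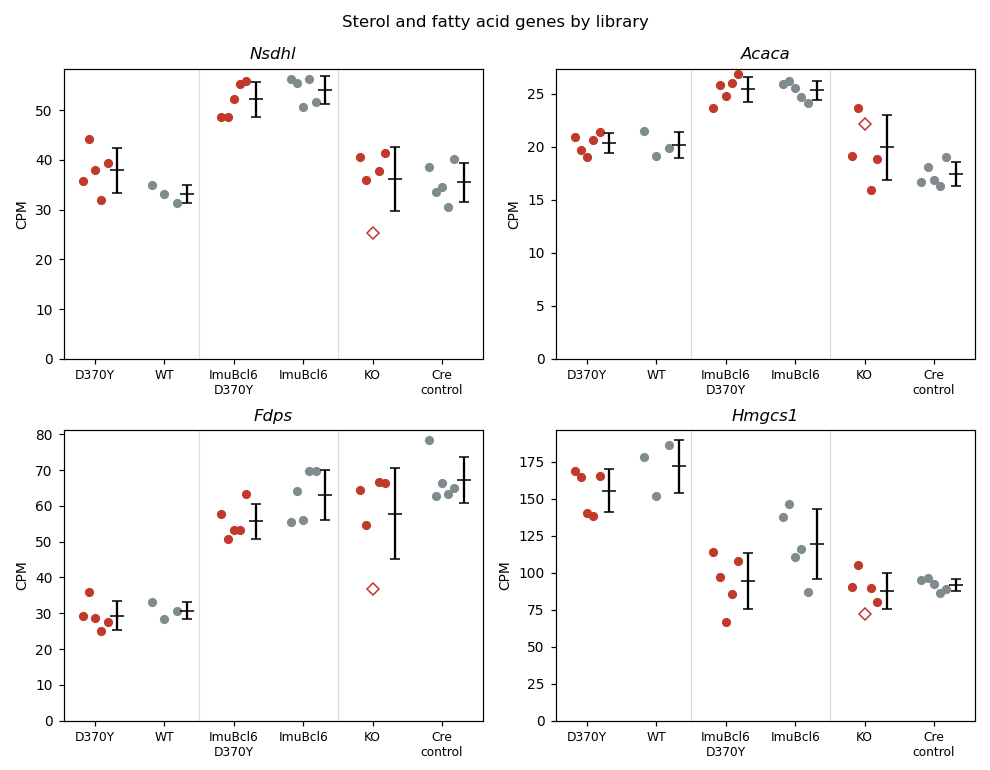
CPM of Nsdhl, Acaca, Fdps and Hmgcs1 in every library of the 6 groups (points; the open diamond is KO replicate 3), with mean and SD beside each group and axes that start at 0; red groups carry the Tbl1xr1 allele. Nsdhl and Acaca are highest in the ImuBcl6 D370Y and ImuBcl6 groups, whereas Fdps is low in all D370Y and WT libraries and Hmgcs1 high, with overlap for Hmgcs1 only with the ImuBcl6 group.

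Members without a call in any comparison were Mvk, Mvd, Idi1, Cyp51, Tm7sf2, Dhcr7, Scap, Insig1, Npc1 and Acly. They include the mevalonate kinase Mvk, the decarboxylase Mvd and the sterol reductases Tm7sf2 and Dhcr7. Group means lay between 14.5 and 24.5 CPM for Mvk, 18.4 and 33.6 for Mvd, 138 and 213 for Cyp51, 38.3 and 54.6 for Dhcr7, and 289.5 and 381 CPM for Acly. The late endosomal cholesterol exporter Npc1 kept group means between 18.5 and 21.1 CPM.

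Of 31 further sterol and fatty acid genes, 0 of 24 tested were called in D370Y against WT (5 at an unadjusted p below 0.05) and 0 of 24 in KO against Cre control (1 unadjusted). Over all genes 3.55% and 1.39% were called in these comparisons. In ImuBcl6 D370Y against ImuBcl6, where 8.18% of all genes were called, 1 of 25 was called. It was Aacs, the acetoacetyl-CoA synthetase, at 72.6 ± 5.64 CPM with D370Y and 92.1 ± 9.84 CPM without (-0.34 ± 0.08 SE, adjusted p = 0.0215). In ImuBcl6 against WT, where 53.3% of all genes were called, 8 of 25 were higher and 7 lower. They were led by Fabp5 (1.49 ± 0.12 SE, adjusted p = 1.81e-06), Tmem97 (0.99 ± 0.07 SE, adjusted p = 8.82e-07), Acacb (0.73 ± 0.16 SE, adjusted p = 0.00304) and Acss2 (0.57 ± 0.13 SE, adjusted p = 0.00345). With D370Y on both sides, where 54% of all genes were called, 5 were higher and 9 lower. They were led by Fabp5 (1.39 ± 0.10 SE, adjusted p = 5.53e-08), Tmem97 (1.097 ± 0.10 SE, adjusted p = 5.6e-07), Mbtps2 (-0.78 ± 0.09 SE, adjusted p = 8.68e-06) and Acacb (0.75 ± 0.26 SE, adjusted p = 0.0226). Fabp5 binds fatty acids in the cytosol, Tmem97 is a sterol-regulated membrane protein, Acacb and Acss2 make malonyl-CoA and acetyl-CoA, and Mbtps2 is a protease that releases SREBP.

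Of all tested genes 3.55% were called in D370Y against WT, 8.18% in the ImuBcl6 background and 1.39% in KO against Cre control. Genes of LXR and cholesterol efflux were higher where called in the allele comparisons, 2 of 15 in D370Y against WT, 4 of 14 in the ImuBcl6 background and 3 of 16 in KO against Cre control, and none was lower. Cd36, a fatty acid and lipoprotein receptor, and Abcg1, a sterol exporter, were among them each time. In D370Y against WT the values were Cd36 (1.02 ± 0.24 SE, adjusted p = 0.0402) and Abcg1 (0.69 ± 0.14 SE, adjusted p = 0.0194), and in the ImuBcl6 background Cd36 (1.33 ± 0.19 SE, adjusted p = 0.00189), Abcg1 (0.74 ± 0.18 SE, adjusted p = 0.0244), Npc2 (0.39 ± 0.10 SE, adjusted p = 0.0287) and Mylip (0.31 ± 0.07 SE, adjusted p = 0.0244). In KO against Cre control they were Cd36 (1.46 ± 0.15 SE, adjusted p = 4.77e-05), Abca1 (0.93 ± 0.17 SE, adjusted p = 0.00744) and Abcg1 (0.84 ± 0.12 SE, adjusted p = 0.00105), and Cd36 averaged 30.2 ± 6.44 CPM in KO and 10.3 ± 1.91 CPM in Cre control libraries (SD, n = 5 each). Of 20 tested genes of fatty acid oxidation, Cpt1a, the carnitine transferase of mitochondrial entry, was lower in D370Y (-0.24 ± 0.06 SE, adjusted p = 0.0459), and the thiolase Acaa2 was higher in ImuBcl6 D370Y (0.38 ± 0.09 SE, adjusted p = 0.0184). None was called in KO against Cre control, where 0 reached an unadjusted p below 0.05.

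Markers of other cell states moved beside these results, and their part in them was not tested. The shares of all genes called were 3.55% in D370Y, 8.18% in ImuBcl6 D370Y and 1.39% in KO, each against its control. Of 8 markers of naive and memory B cells, 7 were higher in D370Y, 5 in ImuBcl6 D370Y and 3 in KO than in their controls, and none was lower. Their summed level was 554 to 765 CPM in D370Y and 405.9 to 449.7 CPM in WT, beside the sums given above for the other alleles. Myeloid markers were higher for 5 of 9 tested genes in D370Y and 5 of 9 in ImuBcl6 D370Y, and for 0 of 10 in KO. Their sums were 208 to 259 CPM in D370Y and 179.6 to 199 CPM in WT, 227 to 310.2 CPM in ImuBcl6 D370Y and 191 to 224 CPM in ImuBcl6, and 174 to 325 CPM in KO and 239 to 265 CPM in Cre controls. Of 14 germinal center B cell markers, 2 were lower in D370Y, 3 in ImuBcl6 D370Y and 1 in KO, and none was higher. Plasma cell markers were higher for 2 of 7 in D370Y, 1 of 6 in ImuBcl6 D370Y and 0 of 7 in KO, with sums of 1907 to 3739 CPM in D370Y and 2365 to 2633 CPM in WT, 2012 to 3054 CPM in ImuBcl6 D370Y and 1997 to 2196 CPM in ImuBcl6, and 1246 to 2148 CPM in KO and 1792 to 2206 CPM in Cre controls. T cell markers were higher for 2 of 4 in ImuBcl6 D370Y and for none of 2 in D370Y or of 4 in KO, with sums of 394 to 475 CPM in ImuBcl6 D370Y and 372 to 468 CPM in ImuBcl6. Stroma and endothelium markers were higher for 1 of 3 in ImuBcl6 D370Y and 0 of 3 in D370Y and in KO. No erythroid marker was called, and Hbb-b1, Hba-a1 and Hba-a2 were at 0 in every library.

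Proliferation lists held few calls in the allele comparisons, where 3.55% (D370Y), 8.18% (ImuBcl6 D370Y) and 1.39% (KO) of all genes were called. Of 18 G1/S genes and 18 G2/M genes, 2 of each were lower in ImuBcl6 D370Y than in ImuBcl6, and none was called in the other allele comparisons, where 6 G1/S and 2 G2/M genes in D370Y and 0 of either in KO reached an unadjusted p below 0.05. Of 22 genes linked to MYC and mTORC1 none was called in these comparisons (3, 1 and 3 unadjusted). In ImuBcl6 against WT, where 53.3% of all genes were called, 9 of 18 G1/S genes were higher and 2 lower, 5 of 18 G2/M genes higher and 4 lower, and 12 of 22 MYC and mTORC1 genes higher and 4 lower.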

How the data were processed

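Each library has a table of CPM for 23382 gene symbols. Per the labels' protocols, RNA came from Trizol and an RNeasy kit, and only KO and Cre control libraries have a stranded TruSeq kit in their text. Per the submitters' processing notes reads were aligned with STAR to mm10. The sources used here do not name the counting tool, annotation or strand setting. The authors deposited CPM over a denominator larger than the listed genes. All values were whole multiples of 1 read within 0.01 read (100%), so whole reads could be recovered.

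The test was limma 3.58.1 on log2(CPM + 1) (R 4.3.3, mean-variance trend, robust moderation), two-sided, with only the groups compared and Benjamini-Hochberg adjustment over all genes with CPM of at least 1 in as many libraries as the smaller group has. Fold changes on this scale understate those of low genes. A gene was called at an adjusted p below 0.05. Counts at an unadjusted p below 0.05 were made for the members and lists only, without the share over all genes. Alternatives were edgeR 4.0.16 and DESeq2 1.42.0 on the recovered reads, other scalings, filters and pseudocounts, and leaving out each library. The tests were tried on simulated data with known changes. Coordinates and exon lengths are from GENCODE M21 on GRCm38, the assembly that mm10 names, and promoters from RefSeq on GRCm38.p6.

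The members and lists were chosen with earlier results of these data known. Values were given in every library for called members and for Srebf2, Scap, Insig1, Insig2, Hmgcs1, Idi1, Sqle, Acaca, Fasn, Scd1 and Scd2 (ranges with medians for some), and up to 4 called genes per other list were named. Libraries were compared pairwise within groups, and no pair was close enough to be 1 library deposited again (lowest chi-square per gene 3.65). Intervals cover the spread between libraries only.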

Additional observations from a re-analysis of the deposited data

Results flagged for a closer look

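Single libraries far from the rest of their group were looked for in the 33 genes over 5 groups of 5 libraries, 165 tests in all, by comparing the gap to the next library with the group's range. By chance such a gap is met in about 1 in 20 groups, and 20 of the 165 met it. KO replicate 3 accounts for 9 of them, each time as the lowest library: Acat2 37.9 CPM, Mvk 14.1, Mvd 20.9, Fdft1 32.999, Sqle 63.6, Cyp51 100.8, Dhcr7 37.0, Insig1 36.0 and Scd1 417 CPM. Its share of reads on listed genes was 64.4%, and the part of that share in these values was not tested. Cre control replicate 1 was high for Pmvk (75.6 CPM), Mvd (37.0 CPM) and Fdps (78.4 CPM), and Cre control replicate 3 was low for Stard4 (29.3 CPM).

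Among D370Y libraries, replicate 2 was high for Mvd (27.3 CPM), replicate 3 low for Srebf2 (409.7 CPM), replicate 4 high for Scap (62.5 CPM) and low for Elovl5 (50.1 CPM), and replicate 5 high for Acsl3 (40.3 CPM). In the ImuBcl6 group, replicate 1 was low for Dhcr7 (38.2 CPM) and replicate 2 high for Elovl5 (47.8 CPM). Fads2 and Scd2 had no such library in any of these groups.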

How the results depend on the processing

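The count of called members was within 1.5 times its reported value in 131 of 147 alternative fits, where a count of 0 that stayed 0 was taken as within. That share therefore says little about the calls. Among fits that leave out 1 library it held in 6 of 10 for ImuBcl6 D370Y against ImuBcl6. It held in 7 of 8 for ImuBcl6 against WT and 10 of 10 for ImuBcl6 D370Y against D370Y. The other comparisons had a reported count of 0. The member median moved by less than the spread between libraries in all 66 fits where it was followed. No called gene that was followed changed sign. Those followed were the called members with the largest fold changes by size, at most 12 per comparison. Without KO replicate 3 the log2 fold changes of 13 of 33 members, none of them called, changed sign in KO against Cre control. Of these, 12 went to above 0, Srebf2, Scap, Idi1 and Sqle among them. For ImuBcl6 D370Y against ImuBcl6 the count was 1, Fads2, without the filter on low values and with all 28 libraries in 1 fit (3 as reported). Those 2 fits called 4.08% and 7.14% of all genes. With each library left out the count was 1 to 4, beside 4% to 9.36% of all genes. The libraries whose loss took away Fasn were ImuBcl6 D370Y replicates 1, 2 and 3 and ImuBcl6 replicates 2, 3 and 4; Scd1 was lost without ImuBcl6 D370Y replicates 1, 3 and 5 and ImuBcl6 replicates 2, 3, 4 and 5. Its adjusted p ranged from 0.0101 to 0.12 over 19 alternatives, that of Fasn from 0.00439 to 0.0733 and that of Fads2 from 9.88e-06 to 0.0201. Lss was called without ImuBcl6 D370Y replicate 5 and by DESeq2, and Srebf2 without ImuBcl6 replicate 1 (adjusted p = 0.0378, 0.0328 and 0.0272).

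For KO against Cre control the reported count was 0. It was 2 with CPM over listed genes, 2 with TMM scaling and 2 with edgeR, where 2.24%, 2.02% and 2.26% of all genes were called. It was 3 with DESeq2 (4.34% of all genes) and 1 with a sex term (1.92%). With each library left out it was 0 to 3, and only the fit without KO replicate 3 gave a call (4.25% of all genes). With a sex term and without that replicate, a choice made after seeing the data, it was 2, beside 2.15% of all genes. Scaling to listed genes gave 48.3% higher among all called genes and TMM 47.6%, against 34.2% as reported. For ImuBcl6 D370Y against ImuBcl6 these were 44.6% and 42.6% against 34.2%, and for D370Y against WT 82.9% and 75.9% against 73.4%. The cause was not tested. The sex term could not be used for the difference between KO and D370Y effects, since D370Y and WT hold 1 sex each.

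With each library left out, ImuBcl6 against WT gave 11 to 22 calls (11 without WT replicate 3, 12 without WT replicate 1) and ImuBcl6 D370Y against D370Y 14 to 19. Of all genes 41.1% to 59.1% were called in the first and 49.6% to 53.5% in the second. The share was 41.1% without WT replicate 3 and 43.4% without WT replicate 1. Losses were followed by gene for the 12 called members with the largest fold changes in each comparison, and not for the smaller calls. Among those followed, Elovl6, Acsl3, Scd2 and Sc5d were lost without 1 or both of WT replicates 1 and 3. Fads2 was lost in ImuBcl6 D370Y against D370Y without D370Y replicate 1 (adjusted p = 0.0511). Elovl6 was lost there without D370Y replicate 2 or 5 or ImuBcl6 D370Y replicate 3 or 4, and Acsl3 without D370Y replicate 5 or ImuBcl6 D370Y replicate 4. In the D370Y effect with minus without ImuBcl6 the count was 0 to 1, in the KO minus D370Y effect and in D370Y against WT 0 throughout. Over the same fits the member medians spanned -0.04 to 0.02, -0.14 to -0.05, -0.11 to 0.03, 0.02 to 0.08 and -0.12 to -0.06 in the 5 comparisons, in the order of the report.

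Replicate numbers did not pair the libraries: correlations of same-numbered libraries' deviations lay between -0.276 and 0.514, and none of the comparisons had all above 0.1. A replicate block gave 1 called member, Fads2, in KO against Cre control, 3 in ImuBcl6 D370Y against ImuBcl6, 15 in ImuBcl6 against WT, 19 in ImuBcl6 D370Y against D370Y, and 0 in D370Y against WT. In the same order, 1.74%, 9.27%, 47.8%, 54.3% and 7.21% of all genes were called with the block. All members stood above the level of 3 reads in each library; how far depth limits the lowest of them, such as Idi1 at 2.49 CPM in D370Y replicate 4, was not tested.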
